A study of Mus musculus with 16 samples.

Results

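Hearts of mouse embryos at embryonic day 10.5 that lacked both Ing5 alleles (Ing5-/-, with both Ing4 alleles present) were compared with hearts that had lost 1 Ing4 allele (Ing4+/-, with both Ing5 alleles present). The members were chosen by genotype alone: 4 Ing5-/- and 4 Ing4+/- hearts, or 8 of the 16 hearts sequenced. The other 8 were 4 wild-type and 4 Ing4+/- Ing5-/- hearts. These entered the fit through the scaling, the filter on low counts and the shared estimate of the spread, and their levels are given for reference. The comparison sets 2 lost alleles of one gene against 1 lost allele of the other, so the gene and the number of alleles cannot be told apart in it. The labels used here give neither the kind of mutation nor the mouse strain.

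ING4 and ING5 are small chromatin proteins with a PHD finger that binds histone H3 trimethylated at lysine 4. Both are subunits of MYST-family histone acetyltransferase complexes: either can join the complex of KAT7 (also called HBO1), and ING5 also joins the complexes of KAT6A and KAT6B. Through these complexes they bring acetyltransferase activity to the start of active genes. At this stage of heart development the myocardium is lined by endocardium and is being covered by the epicardium, a mesothelial sheet that later supplies fibroblasts and mural cells.

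Libraries held 25636152 to 35664331 counted reads in Ing5-/- hearts and 22948569 to 27238579 in Ing4+/- hearts, and 15785 genes were tested. A pair of libraries stood apart on the first principal components (25.3 and 14.7% of the variance): Ing4+/- heart 4, with 0 reads for 668 of the tested genes against 8 to 125 in the 15 other libraries, and Ing5-/- heart 1, in which 136 genes were at least 2-fold above every other heart. The 22 cardiomyocyte markers summed to 32798 CPM (counts scaled to library size) in Ing5-/- heart 1 and to between 44983 and 52258 CPM in the 3 others. They summed to between 45239 and 47551 CPM in Ing4+/- hearts, so markers of the labelled tissue were abundant in every library. Each group had 3 hearts with Y-linked Ddx3y (56.9 to 68.9 CPM) and 1 with Xist and almost no Ddx3y. Ing4+/- heart 4, 1 of the libraries that stood apart, held Xist at 15.99 CPM beside Ddx3y at 67.5 CPM, while the other hearts with Ddx3y held Xist at 0 to 3.35 CPM. The part of RNA from another embryo or library in that heart was not tested. Ing5-/- hearts 1 and 2 came from litter 1, heart 3 from litter 2 and heart 4 from litter 7, while the Ing4+/- hearts came from litters 3, 4, 6 and 7, so that only litter 7 held both genotypes.

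Ing5 transcripts were lower in the Ing5-/- hearts and Ing4 transcripts lower in the Ing4+/- hearts, without overlap, but neither difference passed the adjusted test. Ing5 stood at 29.3, 23.7, 18.5 and 22.4 CPM in Ing5-/- hearts 1 to 4 and at 35.4, 37.2, 33.7 and 42.3 CPM in Ing4+/- hearts. Its transcript level was thus well above 0 in hearts labelled as lacking both alleles, and the labels do not say which exons were removed. The log2 fold change of Ing5, Ing5-/- minus Ing4+/-, was -0.66 ± 0.13 (SE; 95% interval -0.93 to -0.40; edgeR adjusted p = 0.0736). Ing4 stood at 60.7, 52.0, 47.8 and 43.5 CPM in Ing5-/- hearts and at 36.3, 33.5, 32.0 and 34.8 CPM in Ing4+/- hearts, a log2 fold change of 0.58 ± 0.12 (0.32 to 0.83; edgeR adjusted p = 0.0858). In wild-type hearts 1 to 4 Ing4 stood at 42.9, 28.2, 44.4 and 42.6 CPM. The range takes in all 4 Ing4+/- values and 1 of the Ing5-/- values. Its low end rests on wild-type heart 2, and the other wild-type hearts lay above every Ing4+/- heart. Against wild-type, the log2 fold change of Ing4 was 0.37 ± 0.12 in Ing5-/- hearts and -0.21 ± 0.12 in Ing4+/- hearts. Wild-type heart 2 lowered the wild-type mean, so these values do not settle on which side more of the gap lay. For Ing5 the values against wild-type were -0.51 ± 0.13 and 0.15 ± 0.13, and neither target passed there (edgeR adjusted p of 0.319 to 0.956). DESeq2 called both targets, with adjusted p = 0.000762 for Ing5 and 0.00261 for Ing4.

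Across all genes, 5 rose in Ing5-/- relative to Ing4+/- hearts and 0 fell (edgeR quasi-likelihood test, Benjamini-Hochberg adjusted p under 0.05), which is 0.0317% of the genes tested. At an unadjusted p under 0.05 there were 1970 genes (12.5%), 1027 of them higher (6.51%) and 943 lower (5.97%) in Ing5-/- hearts. DESeq2 called 109 genes (0.691%), 73 higher (0.462%) and 36 lower (0.228%), and limma-voom called 4 (0.0253%). The groups of 4 did not overlap for 898 genes (5.69%), with every Ing5-/- heart higher in 436 (2.76%) and lower in 462 (2.93%). Of the 5 called genes, 4 are described here: Krt19, Lrp1, Fam162a and Cox4i2, which encode a keratin of simple epithelia and the epicardium, an endocytic receptor of the LDL receptor family, a mitochondrial protein known to be induced at low oxygen, and an isoform of subunit 4 of cytochrome c oxidase that is also known from the low-oxygen response.

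Cox4i2 (gene ID 84682, chromosome 2: 152753916 to 152765039, GRCm38) had the largest fold change of the 4. It stood at 9.37, 10.7, 12.3 and 7.75 CPM in Ing5-/- hearts and at 5.83, 4.99, 4.54 and 5.14 CPM in Ing4+/- hearts. The lowest Ing5-/- heart was above the highest Ing4+/- heart, and the 4 wild-type hearts, at 5.00 ± 0.725 CPM (SD, n = 4), lay at the Ing4+/- level. The log2 fold change was 0.97 ± 0.16 (edgeR adjusted p = 0.0338), a level 95.2% higher. In Ing4+/- Ing5-/- hearts Cox4i2 stood at 16.1 ± 2.57 CPM (SD, n = 4).

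Krt19 (gene ID 16669, chromosome 11: 100140810 to 100145926) stood at 71.3, 64.0, 82.4 and 51.5 CPM in Ing5-/- hearts and at 37.4, 37.1, 46.2 and 37.1 CPM in Ing4+/- hearts. Its log2 fold change was 0.77 ± 0.12 (edgeR adjusted p = 0.0258). Wild-type hearts, at 49.1 ± 3.49 CPM (SD, n = 4), lay between the means of the single mutants, 67.3 and 39.4 CPM. Fam162a (gene ID 70186, chromosome 16: 36043844 to 36071561) showed the same order of means. It stood at 191, 192, 224 and 156 CPM in Ing5-/- hearts, at 123, 136, 129 and 133 CPM in Ing4+/- hearts and at 152 ± 9.03 CPM (SD, n = 4) in wild-type hearts. The log2 fold change between the single mutants was 0.55 ± 0.09 (edgeR adjusted p = 0.0258). In Ing4+/- Ing5-/- hearts Krt19 stood at 80.3 ± 8.73 CPM and Fam162a at 208 ± 11.8 CPM (SD, n = 4 each).

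Lrp1 (gene ID 16971, chromosome 10: 127538157 to 127621148) has a long transcript, with a deposited length of 14892 bases. It stood at 177, 130.1, 137 and 125 CPM in Ing5-/- hearts and at 96.6, 95.6, 89.4 and 90.0 CPM in Ing4+/- hearts. The log2 fold change was 0.61 ± 0.10 (edgeR adjusted p = 0.0258). Wild-type hearts stood at 116 ± 4.58 CPM and Ing4+/- Ing5-/- hearts at 115 ± 13.6 CPM (SD, n = 4 each). Ing5-/- heart 1 was the highest for Lrp1, and without it the log2 fold change was 0.49 (edgeR adjusted p = 0.0200).

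**Figure D1:**
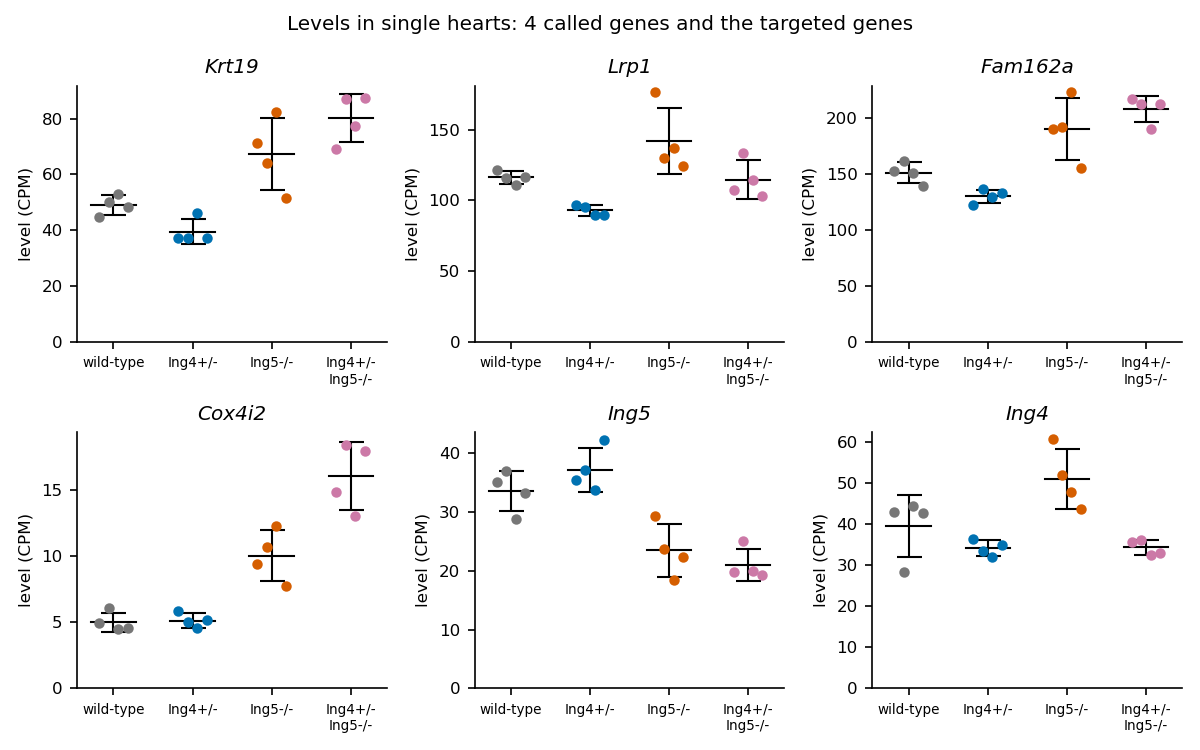
Levels in CPM of 4 called genes and of Ing5 and Ing4 in single hearts of each genotype (points), with the mean (long bar) and SD (error bar) of 4 hearts. In each of the first 4 panels every Ing5-/- heart lies above every Ing4+/- heart; Cox4i2 runs from 7.75 to 12.3 CPM against 4.54 to 5.83 CPM.

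The calls depended on single libraries. Without Ing5-/- heart 3 or without Ing4+/- heart 1, 2 or 4, 0 genes were called, 2 were called without Ing4+/- heart 3, 1 without wild-type heart 1 and 31 without Ing5-/- heart 4. The fold changes moved less than the calls: with each of the 8 hearts left out in turn, the log2 fold change ran from 0.66 to 0.88 for Krt19, from 0.49 to 0.67 for Lrp1, from 0.46 to 0.63 for Fam162a and from 0.85 to 1.07 for Cox4i2. When only the 8 compared hearts were fitted, 0 genes were called, with log2 fold changes of 0.77, 0.61, 0.55 and 0.97 for these 4 (edgeR adjusted p of 0.322 to 0.336), so the edgeR calls were made only with the other genotypes in the fit. DESeq2 on the same 8 hearts called all 4 (adjusted p of 0.000283 to 0.000768). With both libraries that stood apart left out 1 gene was called. The log2 fold changes of Krt19, Lrp1, Fam162a and Cox4i2 were 0.71, 0.48, 0.56 and 1.00 there, and none of these 4 passed (edgeR adjusted p of 0.0619 to 0.0855). Litter 7 held 1 heart of each compared genotype, without replicate. The log2 differences within it were 0.47 for Krt19, 0.47 for Lrp1, 0.23 for Fam162a and 0.59 for Cox4i2. Their positive sign was given by the choice of genes, which took only those without overlap between the groups. The Ing4+/- heart of this pair was heart 4, a library that stood apart. In a fit with litter as a fixed effect 0 genes were called: Krt19, Lrp1 and Cox4i2 had log2 fold changes of 0.67, 0.68 and 0.82 there, and Fam162a fell to 0.30 (edgeR adjusted p of 0.526 to 0.559). With litter as a random effect in limma, where the correlation within litters was -0.012, 4 genes were called.

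Set against the same wild-type hearts, the 4 genes differed in which single mutant stood away from wild-type. These comparisons share their controls, and edgeR called 0 genes in either of them. Cox4i2 had a log2 fold change of 1.00 ± 0.16 in Ing5-/- hearts (edgeR adjusted p = 0.0786) and of 0.032 ± 0.16 in Ing4+/- hearts. Krt19 had values of 0.45 ± 0.12 in Ing5-/- and -0.32 ± 0.12 in Ing4+/- hearts, Fam162a of 0.33 ± 0.09 and -0.22 ± 0.09, and Lrp1 of 0.29 ± 0.10 and -0.32 ± 0.10. For these 3 genes the Ing5-/- mean lay above and the Ing4+/- mean below the wild-type mean, and neither departure passed the test.

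**Figure D2:**
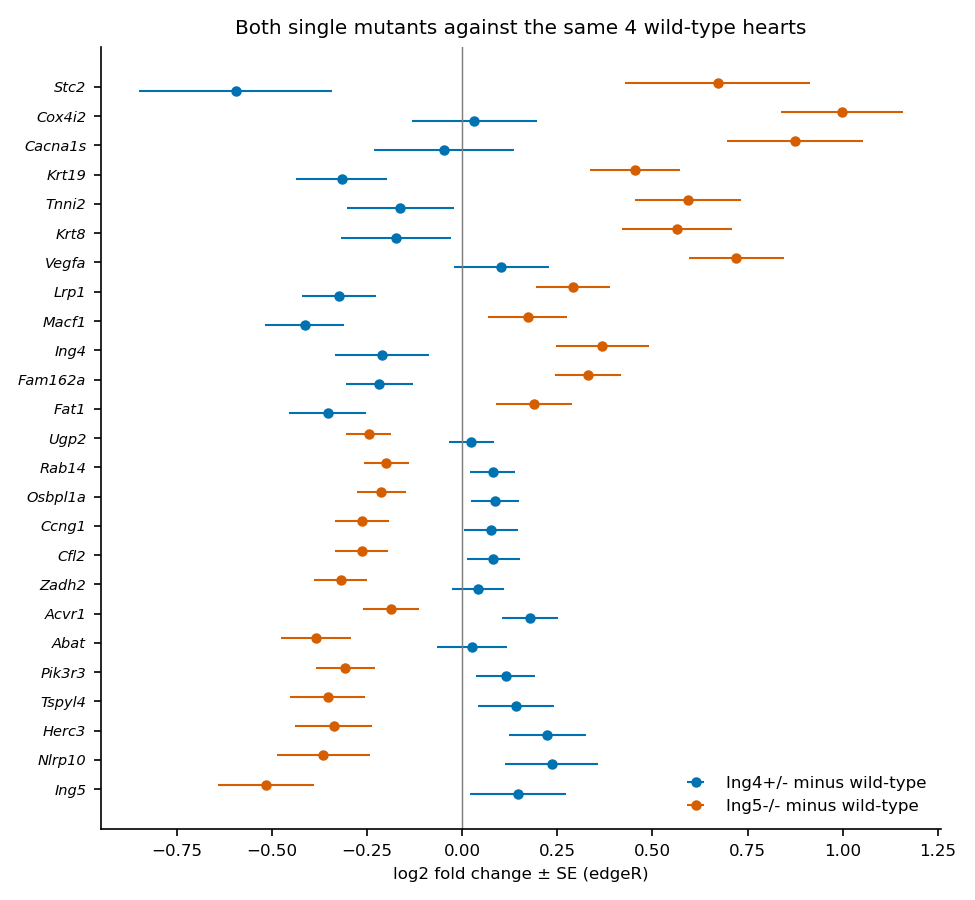
Log2 fold change against the same 4 wild-type hearts (points, with SE as bars) in Ing4+/- hearts and Ing5-/- hearts, for Ing4, Ing5 and 23 genes with the largest or best supported differences between the single mutants. Cox4i2 lies at 0.032 and 1.00, while Krt19 lies at -0.32 and 0.45; the order on the y axis follows the difference between the mutants, which chose the genes.

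The genes next in line among those higher in Ing5-/- hearts, none of which passed the adjusted test, were, Ing4 apart, Macf1, Tnni2, Fat1, Cacna1s, Krt8, Stc2 and Vegfa. Vegfa, the main angiogenic growth factor, stood at 203, 144, 182 and 130.4 CPM in Ing5-/- hearts and at 102, 106, 103 and 118 CPM in Ing4+/- hearts (log2 fold change 0.62 ± 0.12; edgeR adjusted p = 0.0736). Stc2, a secreted glycoprotein, had the largest value at 1.27 ± 0.25, from 5.42 to 9.79 CPM against 2.17 to 4.31 CPM. Tnni2, the troponin I of fast skeletal muscle, had a log2 fold change of 0.76 ± 0.14, and Cacna1s, the calcium channel subunit of skeletal muscle, one of 0.92 ± 0.18. In Ing5-/- hearts Tnni2 stood at 43.3 ± 9.21 CPM and Cacna1s at 9.31 ± 2.91 CPM (SD, n = 4 each). Krt8, a keratin that pairs with Krt18, had 0.74 ± 0.14. Macf1, a linker of microtubules and actin, had 0.59 ± 0.10, and Fat1, an atypical cadherin, had 0.54 ± 0.10. Their transcripts, at 23495 and 14627 bases, belong to the long class described below.

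In the other direction, Ing5 apart, 12 genes had the lowest unadjusted p among those lower in every Ing5-/- heart and averaging at least 1 CPM, and none passed the adjusted test. They were Herc3, Pik3r3, Zadh2, Cfl2, Tspyl4, Acvr1, Nlrp10, Ccng1, Rab14, Osbpl1a, Ugp2 and Abat, with log2 fold changes from -0.60 for Nlrp10 to -0.27 for Ugp2. Herc3, a HECT-type ubiquitin ligase, stood at 24.2, 32.7, 33.2 and 31.7 CPM in Ing5-/- hearts and at 47.2, 42.6, 43.4 and 46.4 CPM in Ing4+/- hearts (-0.56 ± 0.10; edgeR adjusted p = 0.0616). Pik3r3, a regulatory subunit of phosphoinositide 3-kinase, stood at 41.7, 42.6, 39.7 and 47.2 CPM against 58.4, 54.9, 56.8 and 59.2 CPM (-0.42 ± 0.08; edgeR adjusted p = 0.0616). Cfl2, the actin-severing cofilin of muscle, had -0.35 ± 0.07, and Acvr1, a type I receptor for bone morphogenetic proteins, had -0.36 ± 0.07. Ugp2, which makes UDP-glucose for glycogen, had the smallest difference, with 255 to 269 CPM against 299 to 336 CPM. The differences of these genes were small, and the ranges of the groups did not overlap.

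Chromatin partners of the targeted proteins gave no call. Of 17 ING proteins and subunits of MYST complexes, 0 were called and 9 had a positive log2 fold change, against 52.8% of all genes. Their median was 0.0025, against 0.012 over all genes. Kat7, the acetyltransferase of the HBO1 complex, had means of 88.9 ± 7.27 CPM (Ing5-/-) and 91.2 ± 3.08 CPM (Ing4+/-; SD, n = 4 each). Kat6a was at 122 ± 4.38 against 122 ± 7.83 CPM. After the targets, Kat8, the catalytic subunit of the MOF complexes, had the lowest unadjusted p, with 21.7 to 24.9 CPM against 16 to 22.2 CPM and a difference of 0.33 ± 0.11 in log2 (edgeR adjusted p = 0.274). Genes within 10 Mb of the targets held 0 called genes of 162 near Ing4 and 0 of 87 near Ing5. At an unadjusted p under 0.05 they numbered 25 (15.4%) and 13 (14.9%), against 12.5% of all genes.

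Hypoxia targets, the genes switched on by the transcription factor HIF when oxygen is low, had higher mean levels in Ing5-/- hearts, though 0 of 17 tested members were called. All 17 log2 fold changes were positive, with a median of 0.35; 10 had an unadjusted p under 0.05 (58.8%, against 12.5% of all genes), and in 6 every Ing5-/- heart was higher, which held for 2.76% of all genes. Egln3, a prolyl hydroxylase that marks HIF for degradation, stood at 17.4, 16.4, 25.5 and 16.6 CPM in Ing5-/- hearts and at 10.3, 10.9, 12.7 and 13.1 CPM in Ing4+/- hearts (log2 fold change 0.69 ± 0.14; edgeR adjusted p = 0.0814). P4ha2, a collagen prolyl hydroxylase, had 0.66 ± 0.15, and Ndrg1, a stress-response gene, had 0.72 ± 0.17. The list summed to 1247, 1295, 1811 and 1398 CPM in Ing5-/- hearts and to 1063, 1059, 1068 and 1215 CPM in Ing4+/- hearts, without overlap, while wild-type hearts lay between 1102 and 1115 CPM. Without both libraries that stood apart the median was 0.45, and 16 of 17 values were positive. With litter as a fixed effect it was 0.25 and with offsets for length and GC content 0.30, each with 16 of 17 positive.

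Upstream sequences were examined for the called genes with an entry in the RefSeq promoter table, Lrp1 and Fam162a (2 of the 4 described), and for Egln3. They are shown because Fam162a and Egln3 carry the core letters of the hypoxia response element, ACGTG on either strand, and Lrp1 does not. The windows are the 250 bases before the gene start (GRCm38.p6), written 5′ to 3′ along the gene's strand, with this form of the core in capitals.
Fam162a (chr16:36071562-36071811, minus strand): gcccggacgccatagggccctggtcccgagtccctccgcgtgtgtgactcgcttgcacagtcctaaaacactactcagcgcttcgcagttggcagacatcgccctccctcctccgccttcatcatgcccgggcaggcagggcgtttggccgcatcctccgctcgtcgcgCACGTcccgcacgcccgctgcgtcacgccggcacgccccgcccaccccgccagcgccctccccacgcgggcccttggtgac
Egln3 (chr12:54203875-54204124, minus strand): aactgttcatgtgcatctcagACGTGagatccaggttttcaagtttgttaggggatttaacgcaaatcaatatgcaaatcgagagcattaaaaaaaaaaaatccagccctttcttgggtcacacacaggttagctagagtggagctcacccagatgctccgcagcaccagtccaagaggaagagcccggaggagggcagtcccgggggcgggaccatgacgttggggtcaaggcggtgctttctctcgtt
Lrp1 (chr10:127621149-127621398, minus strand): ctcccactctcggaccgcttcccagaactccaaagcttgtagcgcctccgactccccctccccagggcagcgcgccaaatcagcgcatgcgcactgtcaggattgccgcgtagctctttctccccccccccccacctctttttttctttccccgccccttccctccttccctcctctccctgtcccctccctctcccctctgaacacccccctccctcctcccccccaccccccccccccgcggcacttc
This form was present in 16.6% of all 32851 windows of this length. Among hypoxia targets, 15 of 17 genes had an entry, and 12 of their 21 windows (57.1%) held it. That list was made of known HIF targets, so its share says nothing about the difference between the genotypes. Some of its genes gave several windows, which are not independent. A match of 5 letters is a description and not a binding site.

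Glycolysis genes were likewise mostly on the higher side: 16 of 18 were positive, against 52.8% of all genes, with a median of 0.29 and 12 at an unadjusted p under 0.05 (66.7%, against 12.5% of all genes), and 0 were called. With litter as a fixed effect the median was 0.11, with 14 of 18 positive. Slc2a3, a glucose transporter, stood at 109, 131, 222 and 146 CPM in Ing5-/- hearts and at 92.7, 93.6, 90.7 and 114 CPM in Ing4+/- hearts (log2 fold change 0.64 ± 0.19; edgeR adjusted p = 0.226), so the groups overlapped. Slc16a3, which exports lactate, had 0.49 ± 0.13, and Pfkl, a phosphofructokinase, 0.39 ± 0.12. Both were called when Ing5-/- heart 1 was left out, at 0.62 and 0.53. Without Ing5-/- heart 3 they were at 0.30 and 0.26 (edgeR adjusted p of 0.299 and 0.360). Without both libraries that stood apart neither passed (edgeR adjusted p of 0.0830 and 0.0619). The list summed to 8162, 11488, 15169 and 11600 CPM in Ing5-/- hearts against 9426 to 9850 CPM in Ing4+/- hearts. Heart 1 was thus the lowest of all 8 and heart 3 the highest. Of 22 nuclear oxidative phosphorylation genes, 0 were called and 11 were positive, with a median of 0.025.

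Epicardial markers gave 1 call among 19 tested, Krt19, against 0.0317% of all genes. An unadjusted p under 0.05 was found for 5 (26.3%, against 12.5% of all genes). In 3 every Ing5-/- heart was higher, which held for 2.76% of all genes. All 19 values were positive, with a median of 0.37, but this rested on 1 library. The list summed to 1968 CPM in Ing5-/- heart 1 and to 962, 865 and 648 CPM in hearts 2 to 4, against 969, 863, 871 and 735 CPM in Ing4+/- hearts. Without Ing5-/- heart 1 the median was -0.10 with 6 of 19 positive, and with litter as a fixed effect it was 0.17 with 17 of 19 positive. Wt1, a transcription factor of the epicardium, stood at 83.6 ± 45.0 against 66.0 ± 6.74 CPM (SD, n = 4 each; log2 fold change 0.34 ± 0.22), and Tbx18, another, at 133 ± 82.9 against 108 ± 12.6 CPM. The other keratins on the list differed in this: Krt8 stood at 95.7, 57.5, 99.4 and 60.6 CPM against 47.4, 49.8, 48.0 and 42.4 CPM, so that the groups did not overlap, whereas Krt18 stood at 63.1, 34.6, 43.3 and 28.7 CPM against 24.8, 22.5, 27.0 and 29.3 CPM and overlapped. In bulk tissue, a change in the number of cells of a type and a change in RNA per cell cannot be told apart.

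Macrophage markers were high in a pair of Ing5-/- hearts. All 18 were positive, with a median of 1.13 and 11 at an unadjusted p under 0.05 (61.1%, against 12.5% of all genes), and 0 were called. They summed to 111 and 104 CPM in Ing5-/- hearts 1 and 2, both from litter 1, and to 44.6 and 45.5 CPM in hearts 3 and 4, against 47.8, 45.0, 53.6 and 47.6 CPM in Ing4+/- hearts. Ing4+/- Ing5-/- hearts stood at 75.3 CPM in litter 1 and at 113, 117 and 85.2 CPM in litters 4, 6 and 7. With litter as a fixed effect the median was 1.19, with 18 of 18 positive. Without both libraries that stood apart it was 0.70, with 17 of 18 positive. Csf1r, the receptor for macrophage growth factor, stood at 11.2, 11.3, 5.31 and 3.04 CPM against 4.21, 2.75, 3.50 and 1.18 CPM. Endoderm and liver markers followed the same hearts: the 4 tested members summed to 25.0 and 14.1 CPM in hearts 1 and 2 and to 1.51 and 1.66 CPM in hearts 3 and 4, against 1.39 to 4.59 CPM in Ing4+/- hearts. The part of other tissue in these samples in the values of the other genes was not tested.

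**Figure D3:**
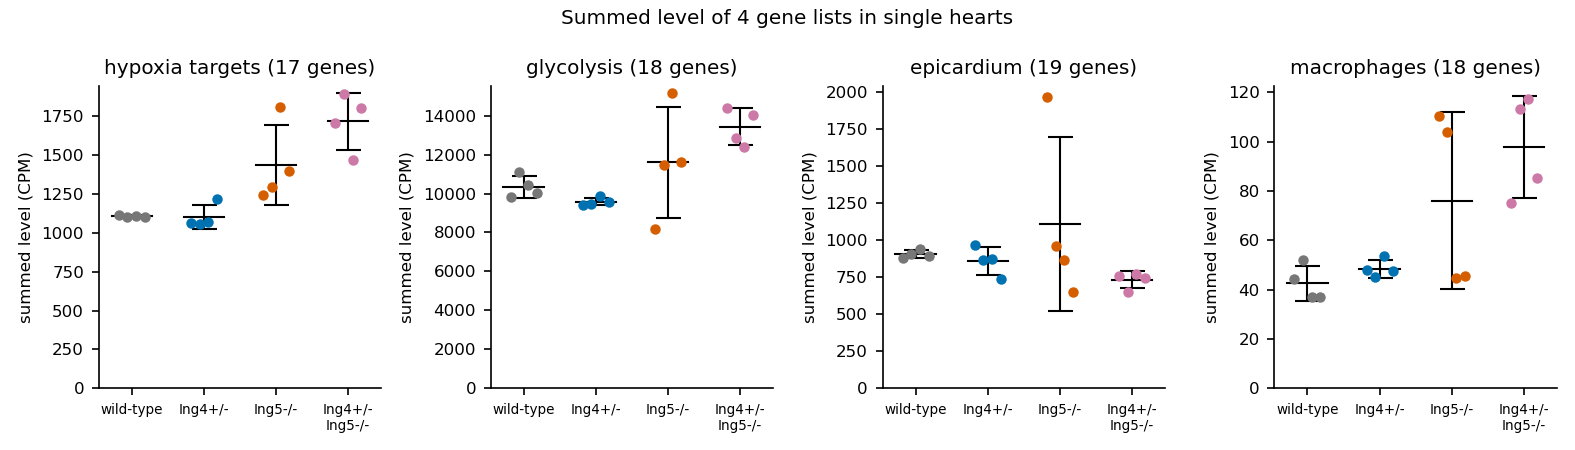
Summed level in CPM of the hypoxia, glycolysis, epicardium and macrophage lists in single hearts (points), with mean (long bar) and SD (error bar) of 4 hearts per genotype. Hypoxia sums of Ing5-/- hearts run from 1247 to 1811 CPM, all above the Ing4+/- hearts; in the epicardium panel 1 Ing5-/- heart lies at 1968 CPM, and in the macrophage panel a pair lies at 111 and 104 CPM.

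Markers of the main heart cell types had medians close to that of all genes. Of 22 cardiomyocyte markers 0 were called and 9 were positive (median -0.046), and of 15 endothelial and endocardial markers 3 were positive (median -0.067). Without Ing5-/- heart 1 these medians were 0.040 and 0.035. Ttn, the giant spring protein of the sarcomere with a deposited length of 104320 bases, stood at 1429, 1370.4, 1177 and 646 CPM in Ing5-/- hearts and at 689, 613, 592 and 670.5 CPM in Ing4+/- hearts and overlapped (log2 fold change 0.85 ± 0.20; edgeR adjusted p = 0.145). Notch3, the receptor that marks mural cells, stood at 73.2, 57.9, 85.3 and 64.4 CPM against 54.2, 52.8, 44.8 and 49.1 CPM without overlap (0.48 ± 0.10; edgeR adjusted p = 0.0814). Tbx20, a cardiac transcription factor also found in the septum transversum list, stood at 314, 435, 460 and 455 CPM against 566, 529, 492 and 539 CPM (-0.35 ± 0.10; edgeR adjusted p = 0.219). Ednrb, the endothelin receptor of neural crest, was lower in every Ing5-/- heart at 58.7 to 86.4 CPM against 100.2 to 110 CPM (-0.47 ± 0.12; edgeR adjusted p = 0.178). Most of the 8 neural crest and neuron markers went the other way, with 6 positive and a median of 0.18 (0.046 without Ing5-/- heart 1). Their summed level was lower in Ing5-/- hearts, at 108 to 121 against 132 to 145 CPM, so the median and the sum differed in direction, and Ednrb made up most of the sum.

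Erythroid markers were positive in 14 of 14, with a median of 0.32, against 0.012 over all genes, 0 called and 0 at an unadjusted p under 0.05. The median was 0.98 with litter as a fixed effect and 0.57 without both libraries that stood apart. Their sum varied within both groups. It was 10065, 6099, 5751 and 34183 CPM in Ing5-/- hearts 1 to 4 and ran from 4972 to 20062 CPM in Ing4+/- hearts. Hba-a1, an adult alpha globin, stood at 3561 CPM in Ing5-/- heart 4 and between 551 and 920 CPM in the 3 others. Without Ing5-/- heart 4 the log2 fold changes turned negative for Hba-a1 (-0.59), Hba-a2 (-0.64), Epor (-0.38) and Hbb-bs (-0.033).

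Among functional lists, ribosomal protein genes were positive in 24 of 24, with a median of 0.20 and 0 called. In 6 of them every Ing5-/- heart was higher (2.76% of all genes), and with offsets for length and GC content the median was 0.094 with 20 of 24 positive. Rps3, a protein of the small subunit, stood at 1156, 902, 891 and 879 CPM in Ing5-/- hearts and at 732, 861, 818 and 749 CPM in Ing4+/- hearts (log2 fold change 0.28 ± 0.09; edgeR adjusted p = 0.281). Mitosis genes had a median of -0.0053 with 8 of 18 positive, and DNA replication genes one of 0.013 with 10 of 18 positive. Pold1, a DNA polymerase subunit, was higher without overlap but by little, 83.9 to 85.4 CPM against 70.9 to 76.7 CPM (0.20 ± 0.06; edgeR adjusted p = 0.219). In the p53 target list (median -0.024, 6 of 15 positive), Ccng1, cyclin G1, stood at 164, 210.2, 192 and 194 CPM against 246, 224, 237 and 254 CPM (-0.34 ± 0.07; edgeR adjusted p = 0.0858). Bax, which opens mitochondria in cell death, stood the other way at 71.9 to 79.3 against 58.7 to 68.5 CPM (0.25 ± 0.07; edgeR adjusted p = 0.219).

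In growth factor signalling, with 12 of 24 positive and a median of 0.0048, Igf1 stood at 60.3, 57.1, 46.4 and 53.3 CPM in Ing5-/- hearts and at 75.2, 62.4, 63.6 and 80.5 CPM in Ing4+/- hearts (-0.38 ± 0.10; edgeR adjusted p = 0.203). Its receptor Igf1r stood the other way, 152 to 170 against 133 to 145 CPM (0.22 ± 0.07; edgeR adjusted p = 0.261). Extracellular matrix genes had a median of 0.099 with 13 of 19 positive. Hspg2, the basement membrane proteoglycan perlecan, stood at 804, 788, 651 and 585 CPM against 488, 466, 434 and 466 CPM (0.61 ± 0.12; edgeR adjusted p = 0.0736). Retinoic acid genes had a median of 0.29 with 10 of 15 positive, which was 0.11 without Ing5-/- heart 1. In that list Aldh1a1, which makes retinoic acid, stood at 86.0 CPM in heart 1 and at 35.9, 31.7 and 23.0 CPM in the others. Immediate early genes (11 of 14 positive), cushion mesenchyme (8 of 14), mural cells and smooth muscle (6 of 9), neural crest and neurons (6 of 8) and proepicardium and septum transversum (4 of 9) had 0 called members. Of 9 skeletal and pharyngeal muscle genes 4 were not tested, and 0 of the 5 tested were called. All 5 were positive, against 52.8% of all genes, with a median of 0.29. Every Ing5-/- heart was higher in 2 of them, which held for 2.76% of all genes. The sums of the 5 did not overlap, at 90.8 to 142 CPM in Ing5-/- and 75.7 to 83.4 CPM in Ing4+/- hearts. These sums include Tnni2, a gene named above for its difference. In all, 22 of the 23 lists held no called gene.

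**Figure D4:**
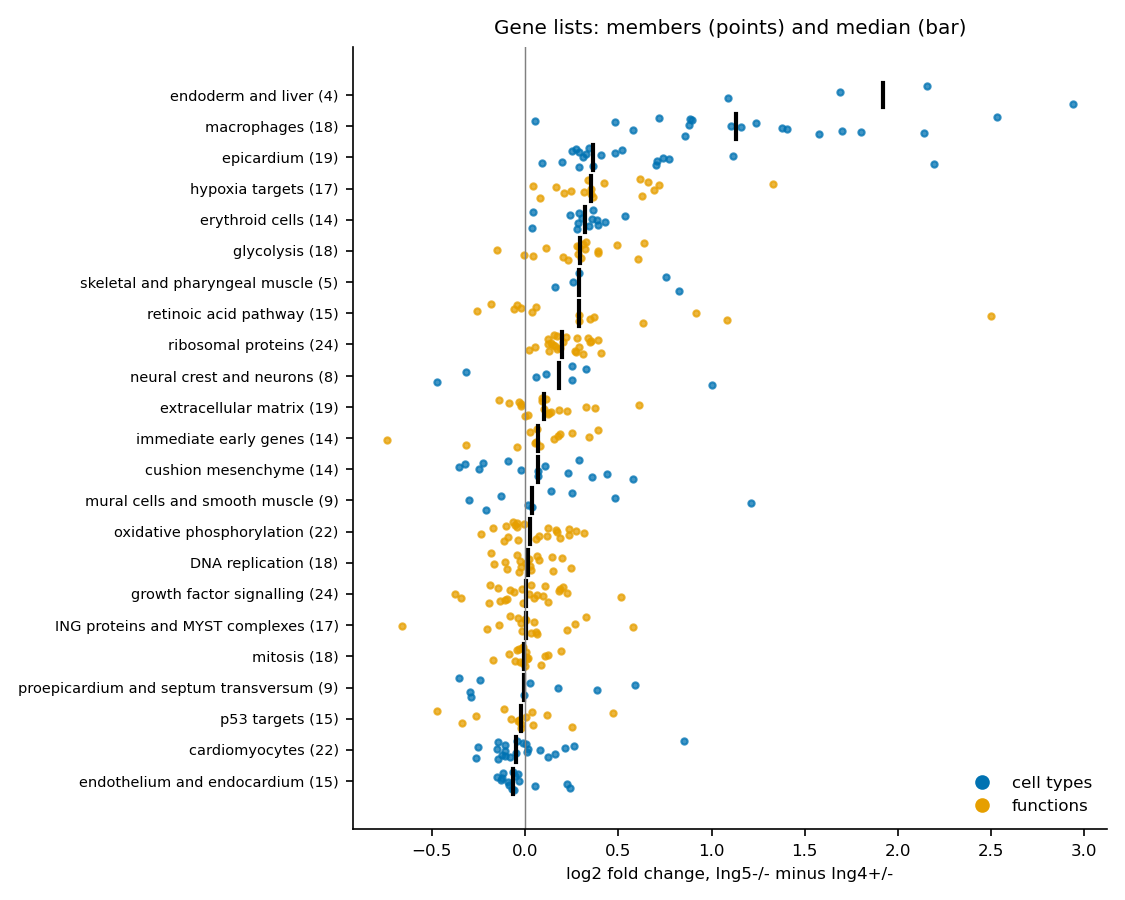
Log2 fold change between Ing5-/- and Ing4+/- hearts of each tested member (points) of 11 cell type and 12 functional lists, with the list's median (bar) and the number tested in brackets. Medians run from -0.067 for endothelium and endocardium to 1.92 for endoderm and liver, a list of 4 genes at low levels; the hypoxia, epicardium, erythroid, macrophage and ribosomal points all lie above 0.

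Gene length and GC content went with the difference, a pattern chosen after the values were seen. Of 122 genes with a deposited length over 12 kb, 78.7% had a positive value, against 52.8% of all genes, and the median was 0.20. Every Ing5-/- heart lay above every Ing4+/- heart in 23 of them (18.9%, against 2.76% of all genes) and below in 0 (against 2.93%). Genes up to 1 kb had a median of 0.14 with 77.7% positive, while genes of 4 to 8 kb had one of -0.038. Genes were also put in 5 classes of equal size by the GC content of the longest transcript. The median ran from -0.074 with 32.1% positive in the lowest class to 0.073 with 68.2% positive in the highest. Ing4+/- heart 4, a library that stood apart, lay far from the other compared hearts in both. Its median deviation of log2 CPM from the mean of all hearts was 0.175 in the lowest and -0.171 in the highest. The other Ing4+/- hearts lay from -0.0080 to 0.028 and from -0.012 to 0.030. Ing5-/- hearts lay from -0.044 to 0.0034 and from 0.0030 to 0.043. The part of Ing4+/- heart 4 in the trend with GC content was not tested. Across genes averaging at least 1 CPM, which share their libraries and are not independent, Spearman's rho of the log2 fold change was 0.30 with GC content and -0.21 with length. Against wild-type hearts the long class had a median of 0.079 in Ing5-/- and of -0.12 in Ing4+/- hearts. Without both libraries that stood apart its median was 0.14. With offsets for length and GC content added to the fit, 0 genes were called: Krt19 had a log2 fold change of 0.63, Cox4i2 of 0.77, Fam162a of 0.44 and Lrp1 of 0.34. The part of RNA integrity or library preparation in these values was not tested.

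**Figure D5:**
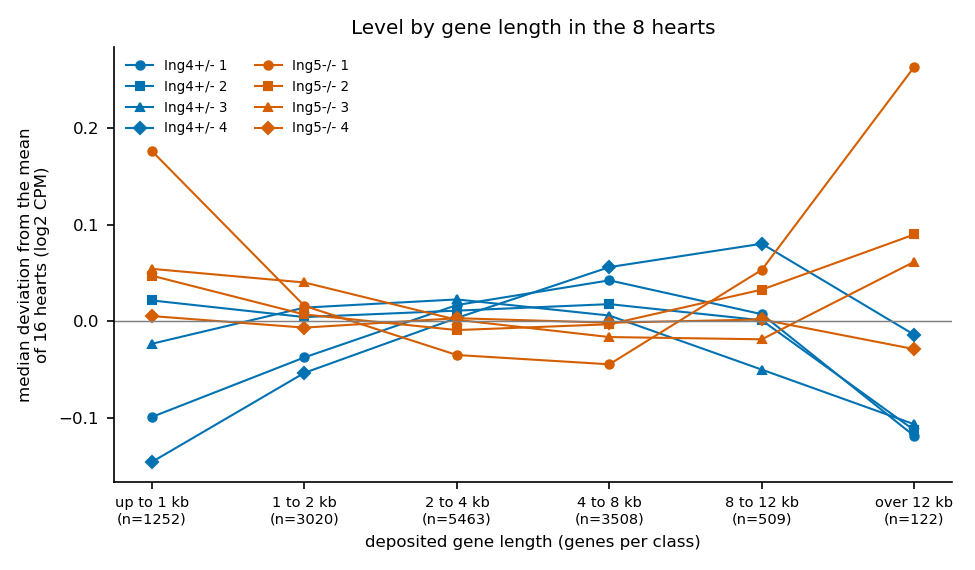
Median deviation of log2 CPM from the mean of all 16 hearts, for 6 classes of deposited gene length (x axis), in each of the 8 hearts (lines). Over 12 kb, Ing5-/- heart 1 lies highest, the 3 lowest hearts are Ing4+/- hearts 1 to 3, and Ing5-/- heart 4 lies below Ing4+/- heart 4.

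DESeq2 added calls that edgeR did not make, and 16 of its 109 were genes over 12 kb. Among the 13874 genes averaging at least 1 CPM, 122 were of that length. Of the 109, 62 were higher and 32 lower without overlap between the groups, and 15 overlapped. Over all genes 2.76% were higher and 2.93% lower without overlap, but the 109 were selected on this same contrast. Hif1a, which encodes the oxygen-regulated subunit of HIF and was picked after its values were seen, had means of 390 ± 70.5 CPM (Ing5-/-) and 516 ± 24.1 CPM (Ing4+/-; SD, n = 4 each), with a log2 fold change of -0.40 (DESeq2 adjusted p = 0.0246, edgeR adjusted p = 0.178). Igfbp3, an insulin-like growth factor carrier picked in the same way, stood at 37.2 ± 9.46 against 21.7 ± 3.77 CPM (0.78; DESeq2 adjusted p = 0.00158, edgeR adjusted p = 0.0870).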

How the data were processed

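RNA was sequenced from single embryonic hearts (total RNA, stranded libraries, per the labels' protocols). The authors deposited raw read counts, as 1 table for the series and 16 equal single-sample tables, with the authors' gene length in bases (other). The submitters' processing notes name bcl2fastq, featureCounts and mm10. The aligner, annotation and strand setting are not stated there. Of 27179 gene IDs, 25275 (93.0%) matched a symbol.

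These counts were fitted in edgeR 4.0.16 under R 4.3.3 (TMM, filterByExpr, quasi-likelihood test of 4 group means over all 16 libraries; 15785 genes kept, 11394 removed), with DESeq2 1.42.0 and limma 3.58.1 as alternatives. CPM used TMM-scaled library sizes. A gene was called at an adjusted p under 0.05. The biological coefficient of variation was 0.159, and the median 95% interval of a log2 fold change was ± 0.26. The labels do not say that hearts of a litter were prepared together, and p-values measure the spread between these embryos. The pipeline was tested on simulated data. Members and lists were chosen with earlier results of these data known. Named were Ing4, Ing5, the 12 genes per direction with the largest called change among those averaging at least 1 CPM without overlap, filled up by the lowest unadjusted p, called genes within 10 Mb of the targets, and up to 4 members of each of 23 lists. Predicted, Y-linked and Xist genes were left out, and 1 of the 5 called genes is not reported here. Residuals of hearts with the same replicate number correlated by 0.10, 0.02, -0.10 and 0.11, so numbers were not taken as pairs. Between libraries of the same group, chi-square divided by its degrees of freedom was above counting error. It ran from 16.9 to 102 between Ing5-/- hearts and from 6.39 to 29.4 between Ing4+/- hearts. Alternatives covered scaling, filters, tools, litter, replicate number, Y-linked and haemoglobin levels, and leaving out libraries; length and GC offsets, leaving out genes over 12 kb, DESeq2 on 8 hearts and leaving out hearts of the other groups were added after seeing the data.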

Additional observations from a re-analysis of the deposited data

Results flagged for a closer look

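A heart was marked as far from the 3 others of its group by Dixon's test at the 95% level. This held for 28 of 266 groups of 4 examined, and chance alone marks about 1 in 20. Ing4+/- heart 4 had the most, with P4ha2 (43 CPM), Slc2a3 (114 CPM), Cenpf (160 CPM), Dhrs3 (0.305 CPM), Aldh1a1 (20.6 CPM), the hypoxia targets sum (1215 CPM), the p53 targets sum (828 CPM) and tested genes with 0 reads (668). Ing5-/- heart 1 was marked for Actn2 (449 CPM), Kcnj8 (6.93 CPM), Dcx (5.63 CPM), Tbx20 (314 CPM) and Rps3 (1156 CPM). Ing5-/- heart 4 was marked for Hba-a1 (3561 CPM), Hba-a2 (2892 CPM), Myc (51.8 CPM) and the erythroid cells sum (34183 CPM). Ing5-/- heart 3 was marked for Tnnt3 (15.3 CPM), Egln3 (25.5 CPM) and Aldoc (17.3 CPM), and Ing5-/- heart 2 for Abat (69.1 CPM). Among the other Ing4+/- hearts, heart 3 was marked for Krt19 (46.2 CPM), Ednrb (100.2 CPM) and Myc (31.6 CPM), heart 2 for Ndufa4 (252 CPM) and the endoderm and liver sum (4.59 CPM) and heart 1 for Ndrg1 (4.81 CPM) and Fosb (1.65 CPM).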

How the results depend on the processing

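The count of 5 called genes moved with the processing. It was 15 with no filter on low counts and 109 with DESeq2 (66 on the 8 hearts alone). It was 21 with haemoglobin level as a covariate and 1 without both libraries that stood apart. Without 3 libraries, these 2 and Ing4+/- Ing5-/- heart 2 from outside the compared groups, it was 24. It was 0 with only the 8 hearts compared, with litter as a fixed effect and with length and GC offsets (also without both libraries that stood apart), and 3 with genes over 12 kb left out. With a replicate block it was 3, and the log2 fold changes of Ing5 and Ing4 were -0.67 and 0.57, so no target call changed. Leaving out each of the 8 hearts gave 0 to 31 calls, a log2 fold change of -0.78 to -0.57 for Ing5 and of 0.49 to 0.65 for Ing4; leaving out hearts of the other groups gave 1 to 19 calls. Ing5 passed with no filter (-0.66), DESeq2 (-0.66 on 16 and on 8 hearts), the haemoglobin covariate (-0.67), without the 3 libraries (-0.72), without Ing5-/- heart 1 (-0.78) and without Ing4+/- Ing5-/- heart 2 (-0.66). Ing4 passed with DESeq2 (0.58 on 16 and on 8 hearts), without Ing5-/- heart 4 (0.65) and without wild-type heart 2 (0.58). Over 33 alternatives Krt19 was called in 22, Lrp1 in 21, Fam162a in 21 and Cox4i2 in 14.

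Signs of log2 fold changes turned as follows, and the cause was not tested. With length and GC offsets: Ttn -0.37. With these offsets and without both libraries that stood apart: Ttn -0.13, Npr3 0.013, Col1a1 -0.042, Kcnj8 -0.51, Abcc9 0.0073, Dcx -0.087, Ier3 -0.032 and Aldh1a1 -0.025. Without both libraries alone: Col1a1 -0.039, Kcnj8 -0.49, Dcx -0.12 and Aldh1a1 -0.039. Without 3 libraries: Col1a1 -0.039, Kcnj8 -0.49, Dcx -0.12 and Aldh1a1 -0.040. With litter as a fixed effect: Tagln -0.022 and Alb -1.83. When each of the 8 hearts was left out in turn, the values ran as follows: Kcnj8 -0.089 to 1.66, Hbb-bs -0.033 to 1.09, Hba-a1 -0.59 to 1.00, Epor -0.38 to 0.69, Hba-a2 -0.64 to 0.94 and Dcx -0.0029 to 1.46, the negative ends of Kcnj8 and Dcx without Ing5-/- heart 1 and the others without Ing5-/- heart 4.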
